A study of Rattus norvegicus with 10 samples.

Results

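The genes described here encode the proteasome and the enzymes that hand ubiquitin to its targets, and they were taken as every gene whose symbol begins with *Psm* or *Ube2* on a rat expression array. A gene was counted where at least 1 probe set (a group of short probes read as 1 transcript) carried its symbol and no other, which gave 75 of 14217 genes and 112 probe sets. The question was how calorie restriction (CR), a cut in food supply without malnutrition, altered their mRNA. Groups of male Wistar rats, 6 weeks old at the start, were given 5%, 10%, 20% or 30% less food, or served as the control, over 1 week or 1 month. Every rat went without food for 16 h before the tissue was taken. The samples are labelled brain, and the study's methods name the hypothalamus area as the tissue. RNA of 5 rats was pooled for each of the 10 groups and hybridised to 1 array, so that no group has a replicate and the rats of a pool cannot be told apart. The 4 CR arrays of 1 week were therefore set as 1 arm against the 1 control array of 1 week, and the p-values below measure the spread between pools fed at different levels. The columns of 1 month did not follow the probe set identifiers, with correlations of only 0.036 to 0.052 to the 1 week arrays across probe sets, and no gene was read from them.

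The 26S proteasome degrades proteins that carry a chain of ubiquitin. Its 20S core is a barrel of outer alpha rings, which gate the entrance, and inner beta rings, which cut the chain. A 19S regulatory particle sits on the end of the barrel. The base of that particle holds a ring of ATPases that unfold the substrate and thread it into the core, and its lid removes the ubiquitin. Ubiquitin is activated by an E1 enzyme, passed to an E2 conjugating enzyme of the Ube2 family and placed on the target with the help of an E3 ligase. In neurons this system is known for its part in synaptic turnover and in the clearance of damaged proteins.

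Of the 75 genes, 16 belong to the core, 20 to the regulatory particle (3 chaperones of its base included) and 29 to the conjugating enzymes. Subunits of the particle without the prefix, such as *Sem1* and *Adrm1*, are outside the 20. The remainder are 3 activators, 1 inhibitor, 4 assembly chaperones and 2 genes, *Psmc3ip* and *Psme3ip1*, that share the prefix but are no subunits. A further 14 probe sets paired one of these symbols with another gene and were not used, and the catalytic subunit *Psmb6* was among the genes left without a value. Values are MAS5 signals, the scanner software's estimate of transcript level on a linear scale, and a log2 change below is the mean of the 4 CR arrays minus control. Each gene was read from its brightest probe set. Genes whose mean log2 signal was above the 50th percentile of all probe sets were tested with limma, with p-values adjusted over 15521 probe sets and a threshold of 0.05, and 71 of the 75 members were above it. *Ube2c*, *Ube2d2b*, *Ube2t* and *Ube2u* were too dim to be tested.

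The 1 week control array stood apart from all 4 CR arrays, and every comparison with control below rests on it. It correlated with them at 0.852 to 0.874 on the log2 scale, against 0.912 to 0.922 among the CR arrays themselves, and 24.0% of its signals were under 10 units, against 11.7 to 14.4% on the CR arrays. The poly-A spike-in controls, bacterial RNAs added before labelling, were lower in the CR mean than on the control array for 12 of 12 probe sets, with a median log2 change of -1.23. The 3'/5' signal ratio, a sign of how complete the labelled RNA was, was 0.40 to 0.79 for GAPDH and 2.19 to 2.80 for beta-actin (log2) on the CR arrays, against 0.19 and 1.90 in control. The part of these differences in the results was not tested. Median scaling of the arrays moved the median log2 change of all genes tested from -0.02 to -0.46 and left 10.0% of the calls on the higher side, against 50.5% with the signals as deposited. With bulk RNA, fewer cells of a type and less RNA per cell cannot be told apart. The defining markers of the hypothalamus were present: 9 of 10 listed peptide genes were on the array under a single symbol, none at 0 and 8 tested, with a summed signal of 23685 to 25862 in CR and 21183 in control, although *Pomc*, the precursor of a satiety peptide, lay at 4.9 to 14.8 in CR and 2.6 in control.

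At 1 week of CR, the genes that passed were mostly lower, and most of them encode the regulatory particle or conjugating enzymes. Of the 71 members tested, 22 were lower in CR and 4 were higher, with 45 not past the threshold. The shares were 31.0% lower and 5.63% higher, against 11.3% and 11.6% of all 9479 genes tested. All 4 CR arrays lay below control for 43 of the 71 (60.6%) and above control for 17 (23.9%), against 35.9% and 33.3% of all genes tested. The median log2 change of all 75 members was -0.27, against -0.02 over all genes tested and 0.13 over all 14217 genes. By group, 11 of 20 regulatory particle genes were lower and none was higher, 9 of 25 tested conjugating enzymes were lower and none was higher, and 2 of 16 core genes were lower and 1 was higher. An exact permutation test of 4 arrays against 1 cannot give a p under 0.2 for any single value, so that the calls rest on the limma fit.

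**Figure D1:**
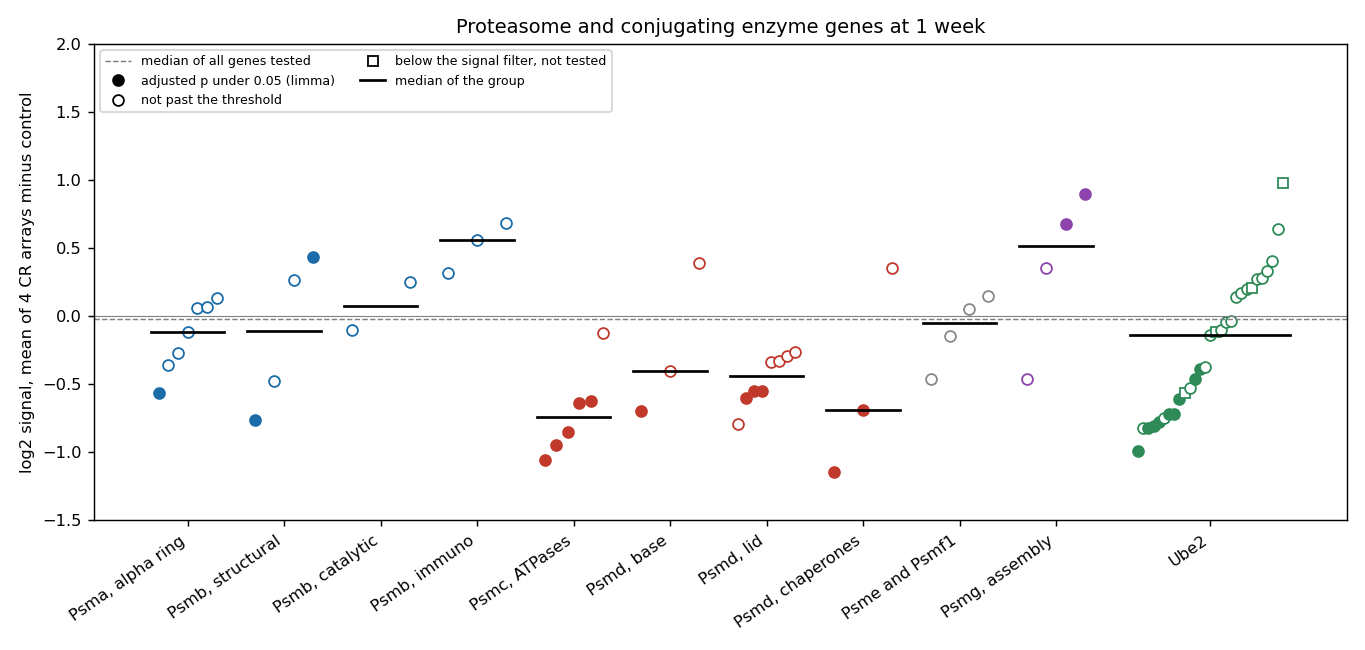
Log2 signal change (mean of 4 CR arrays minus 1 control array, 1 week) of each proteasome and conjugating enzyme gene on its brightest probe set. Genes are grouped by role, with each group's median as a bar. *Psmc3ip* and *Psme3ip1* are not drawn. Of the 6 ATPases 5 are filled, meaning an adjusted p under 0.05, and all 6 lie below 0, whereas the 16 core genes range from -0.76 to 0.69.

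Of the 6 ATPases of the ring, 5 fell. *Psmc1*, a subunit whose tail, in yeast, opens the gate of the core, had signals of 684.3, 602.2, 564.0 and 798.3 at 5, 10, 20 and 30% CR, against 1364.6 in control. Its log2 change was -1.06 ± 0.22 (SD, n = 4 CR arrays; adjusted p = 0.0030). *Psmc5*, another subunit of the same ring, had 940.1, 972.4, 983.7 and 1274.1 in CR, against 1998.1 in control (log2 -0.95 ± 0.20, adjusted p = 0.0032). For both genes the highest CR array, at 30%, was still well under control. *Psmc3* had 654.8, 405.9, 430.4 and 520.9 in CR, against 889.5 in control (log2 -0.85 ± 0.31, adjusted p = 0.025). *Psmc2*, the brightest of the 6, had 1977.8, 1866.7, 2141.3 and 2067.6 in CR, against 3098.7 in control (log2 -0.62 ± 0.09, adjusted p = 0.0035). *Psmc4* had 532.1, 568.2, 618.4 and 503.0 in CR, against 859.5 in control (log2 -0.63 ± 0.13, adjusted p = 0.013). None of these 5 genes had a CR array that reached its control. The sixth subunit, *Psmc6*, had 582.4, 553.3, 583.5 and 588.0 in CR, against 628.5 in control (log2 -0.12 ± 0.04, adjusted p = 0.52): its CR arrays also lay below control, by a distance that did not pass. These *Psmc6* values are from its brightest probe set. Its dimmer ones lay at 0.03, with CR arrays on both sides of control, and at -0.49. The ATPase median was -0.67, -0.89, -0.78 and -0.71 at 5, 10, 20 and 30% CR. Without an intensity trend in the variance, only *Psmc1* and *Psmc5* of the 6 passed.

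**Figure D2:**
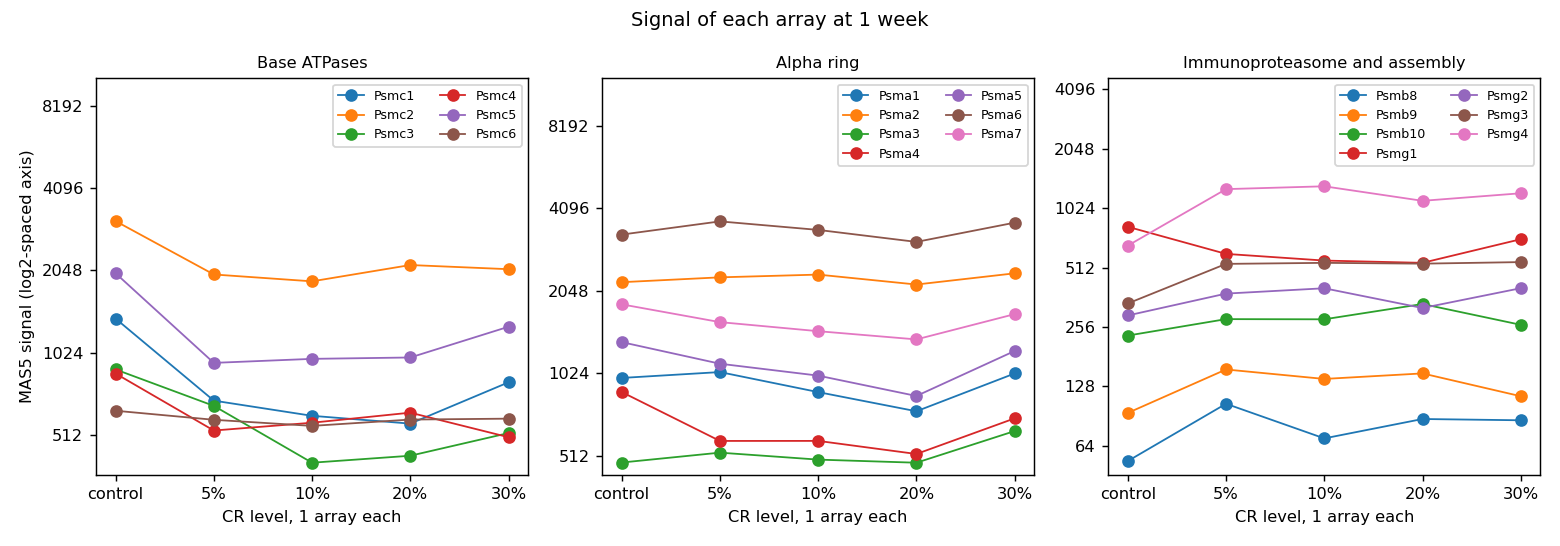
MAS5 signal on a log2-spaced axis for the control array and the arrays at 5, 10, 20 and 30% CR (1 week, 1 array each), for the base ATPases, the alpha ring, and the immunoproteasome and assembly genes. 5 ATPases step down between control and 5% CR, the 7 alpha ring genes share a low point at 20% CR, and *Psmg3* and *Psmg4* lie above control at every level.

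The start regions of 6 genes are given because these genes bracket the pattern: *Psmc1* and *Psmc5* as ATPases that fell, *Psmc6* as the ATPase that did not pass, *Psmb3* as the core gene that rose, and *Psma1* and *Psma5* as alpha ring genes low at 20% CR. Each run covers 250 bases before and 50 after the gene's start in RefSeq on the GRCr8 assembly, written 5′ to 3′ on the gene's strand, and capitals mark matches on either strand to CCGGAAG, a core recognised by ETS factors, or CCAAT, the box bound by NF-Y. A further motif, TGACNNNGC, the core of the antioxidant element through which Nfe2l1 is known to drive proteasome genes, was searched on both strands and had no match in these 6. The matches describe letters in these windows and no binding was measured.
Psmc1, chr6:125122247-125122546, plus strand: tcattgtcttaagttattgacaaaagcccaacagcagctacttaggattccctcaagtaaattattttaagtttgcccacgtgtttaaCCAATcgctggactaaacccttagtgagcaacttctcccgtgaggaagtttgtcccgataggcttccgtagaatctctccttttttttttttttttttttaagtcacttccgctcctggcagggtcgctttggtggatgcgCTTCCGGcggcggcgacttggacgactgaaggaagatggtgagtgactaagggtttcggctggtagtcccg
Psmc5, chr10:91687303-91687602, plus strand: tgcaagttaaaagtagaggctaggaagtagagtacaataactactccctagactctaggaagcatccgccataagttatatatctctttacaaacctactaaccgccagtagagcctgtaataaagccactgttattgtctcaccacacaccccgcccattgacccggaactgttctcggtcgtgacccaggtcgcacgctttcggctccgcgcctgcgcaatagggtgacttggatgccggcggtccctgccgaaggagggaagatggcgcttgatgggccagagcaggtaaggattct
Psmc6, chr15:21022064-21022363, plus strand: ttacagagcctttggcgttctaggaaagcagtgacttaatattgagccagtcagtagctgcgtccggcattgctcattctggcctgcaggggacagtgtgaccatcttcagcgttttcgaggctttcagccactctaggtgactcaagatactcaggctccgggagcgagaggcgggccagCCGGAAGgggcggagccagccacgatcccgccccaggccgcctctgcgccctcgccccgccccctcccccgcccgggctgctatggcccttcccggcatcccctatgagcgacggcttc
Psmb3, chr10:83193537-83193836, plus strand: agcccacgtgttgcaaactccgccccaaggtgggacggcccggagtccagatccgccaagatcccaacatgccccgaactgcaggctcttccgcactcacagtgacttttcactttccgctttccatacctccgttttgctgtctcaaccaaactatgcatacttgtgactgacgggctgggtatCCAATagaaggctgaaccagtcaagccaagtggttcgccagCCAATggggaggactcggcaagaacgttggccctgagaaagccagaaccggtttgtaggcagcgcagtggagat
Psma1, chr1:177887808-177888107, minus strand: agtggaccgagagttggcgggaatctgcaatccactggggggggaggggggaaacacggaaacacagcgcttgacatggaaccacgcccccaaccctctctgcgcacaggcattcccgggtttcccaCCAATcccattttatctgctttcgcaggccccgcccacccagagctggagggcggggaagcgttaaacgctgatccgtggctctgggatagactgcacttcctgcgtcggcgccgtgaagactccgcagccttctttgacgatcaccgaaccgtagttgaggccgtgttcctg
Psma5, chr2:198584255-198584554, plus strand: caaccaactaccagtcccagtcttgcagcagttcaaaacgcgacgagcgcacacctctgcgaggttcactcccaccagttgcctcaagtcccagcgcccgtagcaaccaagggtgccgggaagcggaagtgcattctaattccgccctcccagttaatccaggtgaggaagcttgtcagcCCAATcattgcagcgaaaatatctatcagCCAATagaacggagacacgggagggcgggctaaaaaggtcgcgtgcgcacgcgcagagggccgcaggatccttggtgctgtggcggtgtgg

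Promoters of this length were found for 67 of the 75 members by Entrez identifier. Among them 22 (32.8%) held CCGGAAG, against 9.22% of all 27457 promoters, 31 (46.3%) held CCAAT, against 37.7%, and 14 (20.9%) held TGACNNNGC, against 12.2%. By role, CCAAT was in 11 of 15 core promoters (73.3%), among them 5 of 6 of the alpha ring, and in 41.2% of 17 regulatory particle promoters and 36.0% of 25 conjugating enzyme promoters. CCGGAAG was in 20.0% of core promoters, 41.2% of regulatory particle promoters and 28.0% of conjugating enzyme promoters, and in 3 of the 6 ATPases. TGACNNNGC was in none of the 6 ATPase promoters. Of the 20 lower members with a promoter, 8 held CCGGAAG and 2 held TGACNNNGC, and of the 39 that did not pass, 9 and 12 did. These are counts with no test, and those of lower members and of members that did not pass leave out *Psmc3ip* and *Psme3ip1*.

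Outside the ATPase ring, 6 of 14 regulatory particle genes were lower and none was higher. *Psmd5*, a chaperone of the base, showed the largest reduction of any member tested: 171.2, 135.7, 181.6 and 170.2 in CR, against 361.4 in control (log2 -1.14 ± 0.19, adjusted p = 0.0053). *Psmd9*, a second base chaperone, was lower (log2 -0.69 ± 0.16, adjusted p = 0.043), whereas *Psmd10* (gankyrin), the third, had all 4 CR arrays above control without passing (log2 0.36 ± 0.06, adjusted p = 0.051). The base chaperones thus lay on both sides of control. *Psmd4*, a receptor for ubiquitin chains, had 681.0, 493.4, 500.6 and 717.7 in CR, against 953.6 in control (log2 -0.69 ± 0.29, adjusted p = 0.041). *Psmd1* and *Psmd2*, the scaffold subunits of the base, did not pass: *Psmd1* had 947.3, 1012.3, 890.8 and 828.5 in CR, against 700.5 in control (log2 0.39 ± 0.12, adjusted p = 0.065), and *Psmd2* changed by -0.40 ± 0.16 (adjusted p = 0.089). On the brightest probe set, *Psmd1* and *Psmd10* were the 2 regulatory particle genes of 20 with every CR array above control. The other 18 had every CR array below it. Of the 8 lid genes, all had every CR array below control on that probe set and 3 passed. *Psmd14* is among the 8, and its dimmer probe sets, given below, lay on opposite sides of control. *Psmd7*, the partner of the deubiquitinase in the lid, had 660.3, 729.4, 682.5 and 712.7 in CR, against 1015.9 in control (log2 -0.55 ± 0.06, adjusted p = 0.012). *Psmd11* (log2 -0.60 ± 0.12, adjusted p = 0.011) and *Psmd6* (log2 -0.55 ± 0.19, adjusted p = 0.030), both structural subunits of the lid, were also lower. *Psmd8* had the largest difference of the lid by size and the widest spread and did not pass, with 449.0, 388.9, 260.2 and 511.5 in CR, against 676.6 in control (log2 -0.79 ± 0.42, adjusted p = 0.077). *Psmd3*, *Psmd12*, *Psmd13* and *Psmd14* lay between -0.26 and -0.34. The calls on *Psmd4* and *Psmd9* were lost without the 10% or the 20% array, and that on *Psmd9* also without the 30% array.

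The 20 *Psmc* and *Psmd* genes counted as the regulatory particle, base chaperones included, had a median log2 change of -0.58. Their medians were -0.48, -0.57, -0.55 and -0.45 at 5, 10, 20 and 30% CR. The subunits *Sem1* (log2 0.84 ± 0.18) and *Adrm1* (log2 0.60 ± 0.16) lack these prefixes and are not in these medians. The core had a median of 0.06, with 0.10, 0.05, -0.06 and 0.13 at the same levels. The difference of the 2 medians, core minus regulatory particle, was 0.58, 0.62, 0.50 and 0.57, a mean of 0.57 ± 0.05 (SD, n = 4 arrays), and being a difference within each array pair it does not move with a constant scaling of an array. All 4 values share the control array. Within the particle, the ATPase median minus the lid median was -0.32 ± 0.10. The count of lower regulatory particle genes was 11 of 20, and 3 of 20 without the intensity trend (*Psmc1*, *Psmc5* and *Psmd5*), 7 of 20 after quantile scaling, where *Psmd1* and *Psmd10* passed as higher, and 18 of 20 after median scaling, which set the core median at -0.38 and the count of lower core genes at 9 of 16. Without the intensity trend 0 of 16 core genes passed. Over all genes tested, 11.3% were lower with the signals as deposited, 8.31% after quantile scaling and 36.2% after median scaling.

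In the core, the median lay near control and the genes lay on both sides of it: 6 of 16 had every CR array above control, 6 had every one below, and 4 had both. The alpha ring passed for 1 of 7 genes. *Psma4* had 581.1, 581.3, 520.8 and 702.3 in CR, against 876.2 in control (log2 -0.56 ± 0.18, adjusted p = 0.033), and did not pass without the 5% or the 10% array. The other alpha subunits changed by between -0.36 (*Psma5*) and 0.13 (*Psma3*). What the 7 genes shared was the 20% array, the lowest of the 4 CR arrays for each of them. *Psma1*, for example, had 1035.8, 875.6, 745.4 and 1023.7 in CR, against 986.0 in control, and *Psma5* had 1111.0, 1005.5, 847.5 and 1236.3 in CR, against 1331.9 in control. Of all 16 core genes, 11 were lowest at 20% (68.8%), against 28.6% of all genes tested, 5 of 20 regulatory particle genes and 8 of 25 tested conjugating enzymes. The alpha ring median was 0.06, -0.17, -0.40 and 0.05 at 5, 10, 20 and 30% CR.

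The structural beta subunits diverged. *Psmb3* rose, with 1852.0, 1897.5, 2002.1 and 1879.0 in CR, against 1408.3 in control (log2 0.44 ± 0.05, adjusted p = 0.014), although median scaling set it at -0.0011 and it did not pass without the intensity trend. *Psmb4* fell, with 2010.1, 1555.1, 1404.3 and 2360.0 in CR, against 3040.9 in control (log2 -0.76 ± 0.34, adjusted p = 0.039), a call lost without the 10% array. *Psmb1* (log2 0.26 ± 0.05, adjusted p = 0.074) and *Psmb2* (log2 -0.48 ± 0.20, adjusted p = 0.065) did not pass. The SD over CR levels was small for *Psmb1* and *Psmb3* and larger for *Psmb2* and *Psmb4*.

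With the signals as deposited and the brightest probe set, none of the measured catalytic subunits passed. *Psmb5*, the chymotrypsin-like subunit, had 2874.5, 3055.5, 3136.6 and 3072.7 in CR, against 2554.3 in control (log2 0.25 ± 0.05, adjusted p = 0.096). *Psmb7*, the trypsin-like subunit, had 2071.2, 2055.8, 1815.8 and 2036.3 in CR, against 2134.8 in control (log2 -0.10 ± 0.09, adjusted p = 0.56). *Psmb7* passed as lower after median scaling (log2 -0.54), which set *Psmb5* at -0.19, and *Psmb5* passed as higher with the mean over its probe sets (log2 2.16), so that no direction is given for *Psmb5*. The immunoproteasome subunits, which replace the constitutive ones in immune and interferon-exposed cells, were dimmer and lay above control on every CR array without passing. *Psmb8* had 104.4, 69.7, 87.4 and 86.1 in CR, against 53.5 in control (log2 0.69 ± 0.24, adjusted p = 0.17). *Psmb9* had 155.8, 139.5, 148.8 and 114.0 in CR, against 93.8 in control (log2 0.56 ± 0.20, adjusted p = 0.14). *Psmb10* had 280.4, 279.8, 334.5 and 262.4 in CR, against 231.4 in control (log2 0.32 ± 0.15, adjusted p = 0.25), and median scaling set it at -0.12. *Ube2l6*, the conjugating enzyme for the interferon-induced modifier ISG15, had 108.0, 100.6, 102.9 and 80.8 in CR, against 62.4 in control (log2 0.64 ± 0.19, adjusted p = 0.15). Interferon-induced genes moved beside these: of 5 on the array and 4 tested, *Isg15* (log2 1.06 ± 0.12, adjusted p = 0.0048) and *B2m* (log2 0.30 ± 0.06, adjusted p = 0.041) rose, and their summed signal was 6436 to 7079 in CR and 5443.8 in control. Of 10 microglia markers, 7 were tested and only *Tyrobp* passed (log2 0.92 ± 0.29, adjusted p = 0.026), with a summed signal of 2298 to 2514 in CR, which spans the 2380 in control. Of the interferon-induced genes, *Irf1* (log2 0.25 ± 0.21) and *Irf7* (log2 0.17 ± 0.24) did not pass. *B2m* alone gave 5151.6 of the summed control signal of that list. The part of the markers of either list in the levels of the immunoproteasome genes was not tested.

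Of the 4 chaperones that build the core, 2 rose. *Psmg3* had 534.3, 540.8, 535.7 and 545.6 in CR, against 336.6 in control, with almost no spread over levels (log2 0.68 ± 0.01, adjusted p = 0.0057), and after median scaling it no longer passed. *Psmg4*, its partner in laying down the alpha ring, had 1278.5, 1321.5, 1115.4 and 1218.2 in CR, against 661.1 in control (log2 0.90 ± 0.11, adjusted p = 0.0012). The other pair of alpha ring chaperones did not pass, *Psmg1* at -0.46 ± 0.18 (adjusted p = 0.069) and *Psmg2* at 0.35 ± 0.16 (adjusted p = 0.17). None of the alternative caps of the core passed: *Psme1* (log2 -0.14 ± 0.18, adjusted p = 0.55) and *Psme2* (log2 0.05 ± 0.08, adjusted p = 0.81), the PA28 activator subunits, and *Psme4*, the PA200 activator (log2 0.15 ± 0.28, adjusted p = 0.72), each had CR arrays on both sides of control. *Psmf1*, the inhibitor PI31, had 266.7, 229.6, 248.9 and 321.5 in CR, against 364.0 in control, and did not pass (log2 -0.46 ± 0.21, adjusted p = 0.13). *Psmc3ip*, a recombination factor that carries the ATPase prefix only because it binds *Psmc3*, had 250.1, 248.7, 219.7 and 245.4 in CR, against 113.2 in control (log2 1.09 ± 0.09, adjusted p = 0.0033). Counted by prefix it would stand as the 1 rising gene of the *Psmc* family.

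Among the conjugating enzymes 9 of 25 tested were lower and none was higher, and 16 had every CR array below control, against 5 with every one above. *Ube2j2*, which acts in the degradation of proteins at the endoplasmic reticulum, had 338.3, 289.1, 280.3 and 297.7 in CR, against 597.0 in control (log2 -0.99 ± 0.12, adjusted p = 0.0028). *Ube2h* had 334.9, 294.8, 259.5 and 361.6 in CR, against 547.6 in control (log2 -0.82 ± 0.21, adjusted p = 0.015). *Ube2m*, which conjugates the ubiquitin-like protein NEDD8 to cullin ligases, had 633.4, 536.7, 542.9 and 616.6 in CR, against 1016.8 in control (log2 -0.81 ± 0.12, adjusted p = 0.0037). In each of the 3 the highest CR array lay far under control. *Ube2q1* had 440.8, 416.9, 369.7 and 441.0 in CR, against 714.3 in control (log2 -0.78 ± 0.12, adjusted p = 0.0059). *Ube2b*, a homologue of yeast Rad6 that ubiquitinates histones, had 745.5, 793.0, 756.4 and 824.2 in CR, against 1280.1 in control (log2 -0.72 ± 0.07, adjusted p = 0.0029). *Ube2o*, a large enzyme that works as conjugating enzyme and ligase in 1 protein, changed by -0.72 ± 0.08 (adjusted p = 0.0064), and *Ube2ql1* by -0.61 ± 0.04 (adjusted p = 0.0081). Smaller reductions passed for *Ube2g1* (log2 -0.46 ± 0.10, adjusted p = 0.044) and for *Ube2d2*, a partner of many ligases (log2 -0.39 ± 0.07, adjusted p = 0.047), and both calls were lost without the 5% or the 10% array, that on *Ube2g1* also without the 30% array and that on *Ube2d2* also without the 20% array.

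The conjugating enzymes with every CR array above control were *Ube2f*, *Ube2k*, *Ube2l3*, *Ube2l6* and *Ube2n*, at 0.27 to 0.64 on the brightest probe set, none past the threshold. A dimmer probe set of *Ube2l3*, a partner of ligases such as parkin, passed in the other direction, with 368.2, 385.1, 374.8 and 514.2 in CR, against 729.9 in control (log2 -0.84 ± 0.23, adjusted p = 0.012). Dimmer probe sets of *Ube2k* and *Ube2n* also lay below control, at -0.46 and -0.29, so that no side of control can be given for these 3 genes. *Ube2d2*, lower on its brightest probe set, had both signs as well. Its dimmer probe sets lay at 0.49, with every CR array above control, and at -0.55. *Ube2f*, the second NEDD8 conjugating enzyme, had 419.5, 424.1, 363.6 and 416.4 in CR, against 322.2 in control (log2 0.33 ± 0.10, adjusted p = 0.15), on the other side of control from *Ube2m*. *Ube2n*, which builds chains linked through lysine 63, had 912.2, 924.6, 974.4 and 1164.7 in CR, against 747.9 in control (log2 0.40 ± 0.16, adjusted p = 0.078), and *Ube2v2*, its cofactor, had 753.7, 634.0, 902.6 and 939.0 in CR, against 819.3 in control (log2 -0.04 ± 0.26, adjusted p = 0.91). *Ube2j1*, a relative of *Ube2j2*, did not pass (log2 -0.82 ± 0.20, adjusted p = 0.13) with signals of 51.0 to 71.1 in CR and 105.0 in control. The median of all 29 was -0.14, and that of the 25 tested was -0.37. Leaving out the 5% array moved the median of all 29 to -0.40, leaving out the 20% array moved it to -0.29, and reading the dimmest tested probe set of a gene moved it to -0.74.

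**Figure D3:**
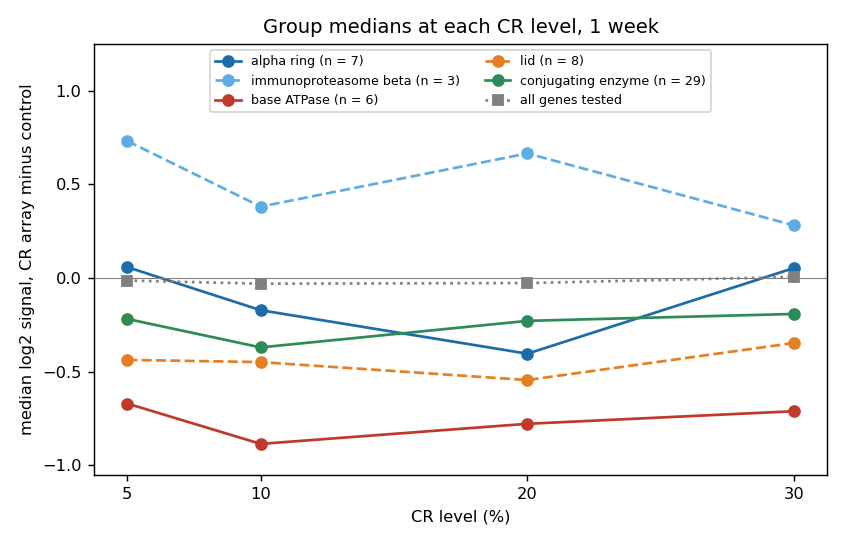
Median log2 signal change against the 1 week control array at 5, 10, 20 and 30% CR (1 array each) for the alpha ring, the immunoproteasome subunits, the base ATPases, the lid, the conjugating enzymes and all genes tested. The ATPases lie lowest at every level, between -0.89 and -0.67, and the alpha ring has its low point, -0.40, at 20% CR.

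No order of the signals by level of restriction was detected. In a slope over the 4 CR arrays, which leaves out the control array, 0 of 71 members passed with limma (lowest adjusted p = 0.999), as did 0.0% of all genes tested, and 3 (4.23%) had an unadjusted p under 0.05, against 4.79% of all probe sets tested. The largest positive slopes are given as values: *Ube2v2* gained 0.19 log2 units per 10 points of CR, *Psmc5* gained 0.16 and *Ube2n* gained 0.14. The steepest negative slopes were -0.15 for *Psmb9*, -0.15 for *Ube2l6* and -0.10 for *Psmd1*. Slopes were positive for 46 members and negative for 25. The same split was not counted over all genes, so that it is no result about the members. The median log2 change of all genes tested was also highest at 30% CR, at 0.006, against -0.013, -0.030 and -0.026 at 5, 10 and 20%. When each CR array was set against the other 3, again without control, no member passed at any level, and neither did any of the 15521 probe sets, so that the absence of calls is no result about the members. At an unadjusted p under 0.05 there were 1 member for the 5% array (1.41% of members, against 2.95% of all genes tested), 2 for the 10% array (2.82%, against 4.36%), 5 for the 20% array (7.04%, against 5.36%) and 9 for the 30% array (12.7%, against 5.14%). The 5 at 20% were all lower there and included *Psma1*, *Psma5* and *Psmb4*. The 9 at 30% were all higher there and included *Psma3*, *Psmb2*, *Psmb4*, *Psmc1* and *Psmc5*.

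Several probe sets covered 25 of the 75 members, and these often did not agree in sign. Which part of a transcript each one reads was not determined. Of 18 members with at least 2 tested probe sets, 7 had 1 sign throughout and 11 had both. All tested probe sets passed in the lower direction for *Psmd7*, *Ube2b*, *Ube2g1* and *Ube2ql1*. For *Ube2g1* the brightest gave 478.8, 510.2, 512.7 and 440.7 in CR, against 666.4 in control, and a dimmer one gave 66.7, 60.3, 46 and 47.4, against 294.1 (log2 -2.43 ± 0.26, adjusted p = 0.0014). In 6 members one probe set passed and another did not, and in 7 none did. *Psmd14*, the deubiquitinase of the lid, was the only member called in opposite directions: 1 probe set had 279.4, 423.8, 363.4 and 326.3 in CR, against 105.0 in control (log2 1.71 ± 0.25, adjusted p = 0.0009), another had 221.2, 189.8, 164.1 and 231.4 in CR, against 662.8 in control (log2 -1.73 ± 0.23, adjusted p = 0.00074), and the brightest had 871.0, 843.4, 881.7 and 895.3 in CR, against 1093.7 in control (log2 -0.33 ± 0.04, adjusted p = 0.066). No direction can be given for *Psmd14* from these values. *Ube2a*, the close relative of *Ube2b*, was at 0.17 ± 0.17 on its brightest probe set and at -0.83 ± 0.11 on another (adjusted p = 0.0056), and *Ube2s*, which extends chains for the anaphase-promoting complex, was at -0.53 ± 0.26 and at 1.61 ± 0.21 (adjusted p = 0.012). With the mean over all probe sets of a gene, dim ones included, *Psmd11* was at 0.92, *Psmd9* at 0.44 and *Ube2b* at 0.26, above control and not below it. Over all 93 tested probe sets of the members, 29 were lower (31.2%) and 7 were higher (7.53%), against 11.0% and 14.5% of all probe sets tested. Of the 19 dim ones that were not tested, none with a signal above 89.9, 10 had every CR array above control. The same share was not counted over all untested probe sets, so that this is no result about the members. Signals under 10 units made up 24.0% of the control array, against 11.7 to 14.4% on the CR arrays.

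**Figure D4:**
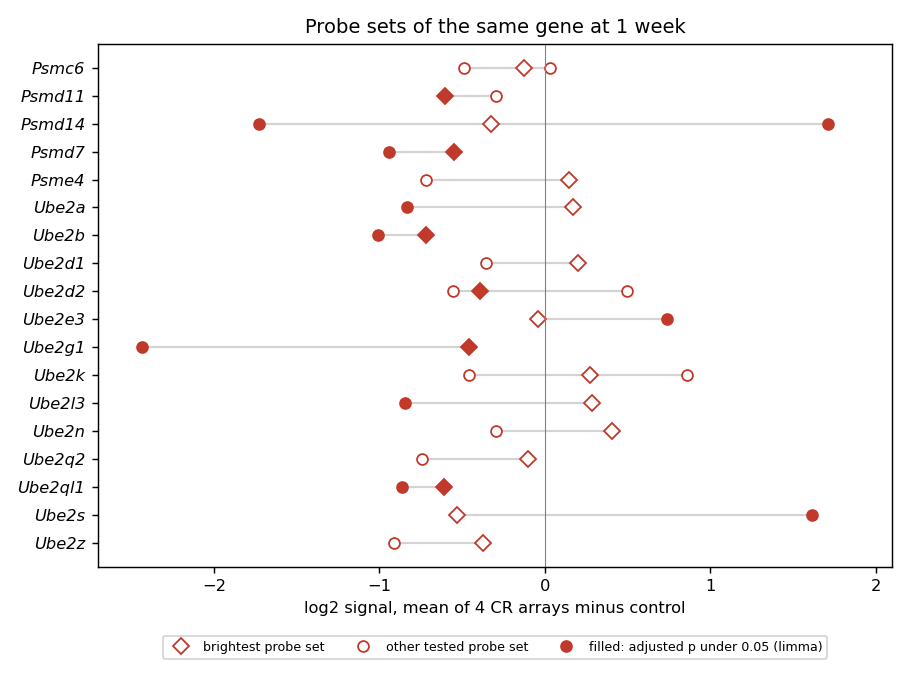
Log2 signal change (mean of 4 CR arrays minus 1 control array, 1 week) of every tested probe set of the 18 members with at least 2, one row per gene, with the brightest probe set as a diamond and an adjusted p under 0.05 as a filled symbol. The 3 probe sets of *Psmd14* lie at -1.73, -0.33 and 1.71.

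Around the members, 34 further genes of the pathway were listed, of which 24 were on the array under a single symbol, 23 were tested, 4 were lower and 3 were higher, with a median log2 change of -0.13. The shares, 17.4% lower and 13.0% higher, are close to the 11.3% and 11.6% of all genes tested. None of the 4 ubiquitin genes could be read. The 2 E1 enzymes for ubiquitin differed: *Uba1*, the main one, had 1154.9, 1082.7, 1009.9 and 1140.5 in CR, against 1168.3 in control (log2 -0.09 ± 0.09, adjusted p = 0.62), and *Uba6* had 702.2, 1092.4, 1132.5 and 819.6 in CR, against 273.1 in control (log2 1.75 ± 0.33, adjusted p = 0.001). The E1 subunits for ubiquitin-like proteins included 2 that fell. *Nae1*, of the NEDD8 E1, had 190.0, 187.9, 195.9 and 165.2 in CR, against 575.8 in control (log2 -1.64 ± 0.11, adjusted p = 0.00046), its partner *Uba3* was at 0.06 ± 0.11 (adjusted p = 0.76), and *Uba2*, of the SUMO E1, fell by 0.99 on the log2 scale (adjusted p = 0.002). Of the subunits and enzymes that dock on the regulatory particle, *Sem1*, a small lid subunit, had 2433.9, 2945.5, 2546.7 and 3154.9 in CR, against 1543.2 in control (log2 0.84 ± 0.18, adjusted p = 0.0031), and *Adrm1*, a ubiquitin receptor of the base, had 540.4, 444.7, 435.2 and 419.3 in CR, against 301.9 in control (log2 0.60 ± 0.16, adjusted p = 0.031). Both belong to the particle without sharing its gene prefixes, and both rose. None of its *Psmc* and *Psmd* genes passed as higher on the brightest probe set with the signals as deposited. A dimmer probe set of *Psmd14* did, and another passed as lower. The deubiquitinases *Usp14* (log2 0.25 ± 0.07, adjusted p = 0.10) and *Uchl5* (log2 -0.06 ± 0.08, adjusted p = 0.80) did not pass. *Vcp*, the unfoldase that extracts ubiquitinated proteins for the proteasome, had 696.0, 659.6, 615.3 and 644.0 in CR, against 1297.5 in control (log2 -0.99 ± 0.07, adjusted p = 0.00081), and *Sqstm1*, the autophagy receptor p62, had 1656.9, 1433.0, 1353.0 and 1783.3 in CR, against 2745.7 in control (log2 -0.83 ± 0.18, adjusted p = 0.0041). *Nfe2l1*, the transcription factor known to induce proteasome genes, was at -0.11 ± 0.08 (adjusted p = 0.68), *Pomp*, which matures the core, at 0.22 ± 0.05 (adjusted p = 0.12), and *Uchl1*, an abundant neuronal deubiquitinase, at -0.33 ± 0.24 (adjusted p = 0.19).

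Markers of other cell types and of neighbouring tissues moved beside these results, in several lists to both sides. All 3 tested pituitary hormone genes were higher, with a summed signal of 1972 to 2806 in CR and 965.6 in control. Of 4 oligodendrocyte markers *Mog* (log2 -1.35), *Mal* (log2 -1.26) and *Ugt8* (log2 -1.36) fell. The other, *Mbp*, did not pass, with 8699.7, 9161.8, 9018.6 and 8811.6 in CR, against 8503.5 in control (log2 0.07 ± 0.03). *Mbp* gave most of the summed signal of that list, which was 10010 to 10433 in CR and 11639 in control. Of 3 choroid plexus markers 2 were tested, and *Ttr* rose (log2 1.93 ± 0.41, adjusted p = 0.0045), with a summed signal of 216.0 to 287.8 in CR and 106.4 in control. Of 5 endothelial markers *Tie1* and *Slc2a1* rose and *Cldn5* fell, with sums of 1222 to 1407 in CR and 1279 in control. Of 4 astrocyte markers *Gja1* rose and *Aldh1l1* fell, with sums of 13454 to 14358 in CR and 12358 in control. Of 5 general neuronal markers *Nefm* rose (log2 0.44), *Tubb3* (log2 -0.64) and *Stmn2* (log2 -0.41) fell and *Snap25* did not pass (log2 -0.10), and the sums were 8710 to 9794 in CR and 10422 in control. Neither of the 2 blood markers passed. Some untested markers were dim in control, such as *Prl* at 0.6 and *Kcnj13* at 2.9. The part of these lists in the proteasome and conjugating enzyme signals was not tested.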

How the data were processed

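RNA of 5 pooled rats per group was hybridised to 1 Affymetrix array for each of 10 groups. The deposited table holds linear MAS5 signal intensities, with a column for each array. The submitters' processing notes name MAS5, which subtracts the signal of mismatch probes and scales each array, and this makes dim signals unsteady as logs. Every 1 week array had a trimmed mean (2% off each end) of 158.8. Detection calls were not used here. The number of arrays limits the precision.

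The 1 week signals were taken as log2, after 4 values of 0 were set to 0.1, and 57 control probe sets were left out. limma 3.58.1 (R 4.3.3; lmFit, eBayes with an intensity trend) compared the 4 CR arrays with the 1 control array with 3 residual degrees of freedom, on the assumption that a control pool varies like the CR pools, and Benjamini-Hochberg adjustment ran over all probe sets above the filter. The slope used 2 residual degrees of freedom. Groups of genes are described by counts and medians with no set test. Probe sets were named through the platform annotation, and Entrez identifiers matched all 75 members to RefSeq.

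The members and lists were chosen with earlier results of these data known. Genes given in detail were the catalytic subunits, the Psme and Psmf genes, up to 4 of the largest changes past the threshold per group and direction, the 3 steepest slopes each way and members called in opposite directions. The others were added after their values were seen. Python 3.11.15 with pandas 2.3.3 and matplotlib 3.10.9 made the tables and plots. Alternatives were median, quantile and cyclic loess scaling, other filters, a pseudocount of 13.7, other variance models, leaving out a CR array, and other ways to choose a probe set.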

Additional observations from a re-analysis of the deposited data

Results flagged for a closer look

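Among the 27 genes given in detail, the 4 CR arrays were searched for an array far from the others, measured as its gap to the nearest one divided by the range and compared with Dixon's critical value for 4 samples. Chance marks about 1 in 20 such groups, and 2 of 27 were marked. *Psmb7*, the trypsin-like subunit of the core, was lowest at 20% CR, with 1815.8 against 2036.3 to 2071.2 on the other 3 CR arrays (ratio 0.871), the same array at which the alpha ring genes were lowest. *Psmc5*, an ATPase of the regulatory particle, was highest at 30% CR, with 1274.1 against 940.1 to 983.7 on the other 3 CR arrays (ratio 0.851), and it stayed below the 1998.1 of control. Since each level is 1 pool, the level and the pool cannot be told apart.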

How the results depend on the processing

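No paired analysis was possible because each group has 1 array and the labels give no replicate numbers. Of the 26 members called, 26 kept the call with no filter, with a pseudocount or with robust eBayes, 25 with the filter at the 75th percentile (1 was not tested there), 24 after median scaling, 23 after cyclic loess, 19 after quantile scaling and 12 without the intensity trend. The count of higher members was 4 and became 2 after median scaling, 9 after quantile scaling and 7 with the mean over the probe sets of a gene. The count of lower members was 22 and became 46 after median scaling and 9 without the intensity trend. Over all genes tested, 11.3% were lower with the signals as deposited and 36.2% after median scaling. Genes called higher numbered 1098 of 9479 as deposited, 380 of 9479 after median scaling and 935 of 9474 after quantile scaling. Leaving out 1 CR array gave 4 to 5 higher and 16 to 26 lower members, 16 of them without the 10% array.

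The median of the core (0.06) became -0.38 after median scaling, -0.040 after cyclic loess and -0.021 with the filter at the 75th percentile, and lay at 0.04 to 0.10 without 1 CR array. That of the regulatory particle (-0.58) became -1.01 after median scaling, -0.49 after quantile scaling and -0.37 with the mean over probe sets, and lay at -0.59 to -0.56 without 1 CR array. That of the conjugating enzymes (-0.14) became -0.57 after median scaling, -0.31 after quantile scaling, -0.36 after cyclic loess, -0.37 with either filter, -0.28 with the mean over probe sets and -0.74 with the dimmest probe set, and lay at -0.40 to -0.11 without 1 CR array. Relative to the median of all genes the median-scaled values are unchanged by construction: 0.08 for the core, -0.56 for the regulatory particle and -0.12 for the conjugating enzymes.

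Among the called genes given in detail or named as lower, signs turned for *Psmb3* after median scaling (-0.0011) and, with the mean over probe sets, which brings in dim ones, for *Psmd11* (0.92), *Psmd9* (0.44) and *Ube2b* (0.26). Among those not called, signs turned after median scaling for *Psmb5* (-0.19), *Psmb10* (-0.12), *Psmd1* (-0.049), *Psme2* (-0.39), *Psme4* (-0.29) and *Ube2n* (-0.035), with the mean over probe sets for *Psme1* (1.70) and *Psme4* (-0.47), with the dimmest probe set for *Psme4* (-0.72) and *Ube2n* (-0.29), and for *Ube2v2* after quantile scaling (0.064) and without the 10% array (0.072). The cause was not tested. Some genes given in detail that were not called passed elsewhere. After median scaling *Psmb7*, *Psmd14*, *Psme1* and *Psmf1* passed as lower. *Psmd14* also passed as lower on its dimmest probe set. *Psmd1* and *Ube2n* passed as higher after quantile scaling, and *Psmd1* also without the 30% array. *Psmb5* and *Psme1* passed as higher with the mean over probe sets. Members not given in detail also passed elsewhere and are not listed here. Calls on *Psmc1*, *Psmc5*, *Psmd5*, *Psmg4*, *Ube2j2*, *Ube2m*, *Ube2o*, *Ube2q1* and *Ube2ql1* held under every alternative run for them. The slope over CR level gave 0 called members with the control as 0%, with no filter and after quantile scaling. No alternative was run for each CR array against the other 3.

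With 1 control array, no spread of control pools was measured, and the depth of an array signal is unknown.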
